A study of Mus musculus with 4 samples.

Results

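The genes described here are 45 interferon-stimulated genes, taken by name from the 50600 genes counted in RNA sequencing of mouse T-helper 17 (Th17) cells. They cover 11 roles, from the enzymes and binding proteins that act on viral RNA to the GTPases that act on intracellular pathogens. The rule gives the genes by symbol and uses no measured value, and all 45 were found. The series holds 4 libraries of 1 group and no second condition. All 4 are described as primary Th17 cells from C57BL/6NJ mice and carry biological replicate numbers from 1 to 4. They share 1 donor label, sex was not collected, and age is given as unknown. The labels name no genotype or treatment besides differentiation into Th17 cells, and the headers of the files mark every library as 72 hr and sorted. The assay is called total RNA sequencing, while the title of the library protocol it links names poly(A) RNA. Since no label states that each library had its own animal or culture, the p-values below speak of the spread among these 4 libraries, part of which may be technical.

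Interferons are secreted proteins that warn cells of infection. Type I interferons bind the receptor chains Ifnar1 and Ifnar2, whose kinases Jak1 and Tyk2 phosphorylate Stat2. Stat2 and Irf9 are parts of a complex that binds the interferon-stimulated response element (ISRE) in promoters. Interferon gamma acts through Ifngr1, Ifngr2, Jak1 and Jak2, and its response genes often hold the gamma-activated sequence (GAS). The genes switched on in this way block virus entry, sense and degrade viral RNA, and halt translation, and many have a low level in uninfected cells. Th17 cells are CD4 T cells that secrete interleukin 17.

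The promoters of 6 of the genes are shown because the ISRE core is the sequence that the interferon-activated complex binds. They are the genes with the most unequal levels between libraries among those whose promoter held the core. Sequences are RefSeq's, build GRCm38.p6, from 250 bases before to 30 bases after the transcription start, 5′ to 3′ on the gene's strand. Capitals mark each match to the ISRE core, TTTCNNTTTC or its reverse complement GAAANNGAAA, where N is any base. Oas3 lies on the minus strand at chr5:120777630-120777909, Isg15 on the minus strand at chr4:156200789-156201068 and Ifit1 on the plus strand at chr19:34640639-34640918. Ifitm3 lies on the minus strand at chr7:141010715-141010994, Gbp3 on the plus strand at chr3:142559794-142560073 and Trim30a on the minus strand at chr7:104465164-104465443.
Oas3: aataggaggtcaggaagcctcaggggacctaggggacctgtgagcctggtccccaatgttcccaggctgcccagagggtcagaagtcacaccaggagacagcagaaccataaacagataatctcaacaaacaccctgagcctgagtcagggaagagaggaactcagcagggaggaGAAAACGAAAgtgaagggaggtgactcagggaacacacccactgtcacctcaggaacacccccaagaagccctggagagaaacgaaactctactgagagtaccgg
Isg15: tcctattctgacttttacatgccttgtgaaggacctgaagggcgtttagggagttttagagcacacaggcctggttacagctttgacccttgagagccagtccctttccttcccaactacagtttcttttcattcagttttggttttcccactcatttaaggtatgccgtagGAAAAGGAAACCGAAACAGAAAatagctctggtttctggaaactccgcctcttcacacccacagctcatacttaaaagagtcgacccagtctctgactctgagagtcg
Ifit1: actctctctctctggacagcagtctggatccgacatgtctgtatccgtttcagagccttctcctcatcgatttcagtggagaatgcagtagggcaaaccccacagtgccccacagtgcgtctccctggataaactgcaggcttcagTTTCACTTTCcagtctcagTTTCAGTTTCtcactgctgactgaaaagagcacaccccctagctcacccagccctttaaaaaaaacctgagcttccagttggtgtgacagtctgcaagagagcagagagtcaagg
Ifitm3: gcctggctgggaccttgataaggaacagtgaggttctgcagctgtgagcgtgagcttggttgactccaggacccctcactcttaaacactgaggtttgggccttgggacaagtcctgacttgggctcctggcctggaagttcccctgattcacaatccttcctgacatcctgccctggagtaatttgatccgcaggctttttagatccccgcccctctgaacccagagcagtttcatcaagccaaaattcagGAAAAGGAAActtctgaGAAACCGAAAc
Gbp3: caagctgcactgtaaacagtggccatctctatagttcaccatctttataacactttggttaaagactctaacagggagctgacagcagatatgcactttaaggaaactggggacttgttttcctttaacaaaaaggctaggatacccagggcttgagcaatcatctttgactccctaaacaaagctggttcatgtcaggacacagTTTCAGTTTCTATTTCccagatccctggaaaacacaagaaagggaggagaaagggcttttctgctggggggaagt
Trim30a: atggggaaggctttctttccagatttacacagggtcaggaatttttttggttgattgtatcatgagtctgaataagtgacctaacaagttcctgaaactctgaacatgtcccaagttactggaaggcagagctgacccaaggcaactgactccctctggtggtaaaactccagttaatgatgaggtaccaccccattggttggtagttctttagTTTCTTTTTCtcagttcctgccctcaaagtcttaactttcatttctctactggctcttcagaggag

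The core was found once in the Oas3 promoter, with its first base at position -75 from the start. Isg15 had 3 overlapping matches, at -78, -72 and -66, and Ifit1 had separate matches at -104 and -85. Gbp3 had overlapping matches at -45 and -39, Trim30a had 1 at -36, and the matches of Ifitm3 lay after the start, at 3 and 20. Between them, at 14 and overlapping the second, Ifitm3 also held the GAS letters TTCNNNGAA, which read the same on both strands. RefSeq's table had promoters, taken here from 250 bases before to 50 bases after the start, for 33 of the 45 genes. On either strand, 18 of the 33 (54.5%) held the ISRE core, against 3.99% of 27025 genes with a promoter in the table. The GAS letters were in 9 of the 33 (27.3%) and in 9.55% of all genes. Both were in 5, among them Oas1a, Eif2ak2, Bst2 and Igtp besides Ifitm3, and neither in 11. A match describes the letters only and shows no binding.

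The 4 files held between 9382661 counts (replicate 3) and 34542693 counts (replicate 1) of read pairs, a 3.68-fold range. No 2 libraries agreed within sampling noise (chi-square of 3.32 to 18.5 per gene, genes with 20 or more counts in the pair), and each was counted as 1 replicate. The cells had the defining markers of their label. Il17a lay between 6741 and 8361 TPM, and Cd4 between 537 and 598 TPM (TPM is the count per length of the gene, scaled to a sum of 1000000 in each library). Some markers of other immune cells were at 0 counts in all 4 libraries: 3 of 7 of plasmacytoid dendritic cells (Siglech, Ly6d and Klk1), 3 of 7 of other dendritic cells (H2-Aa, Clec9a and Cd209a), 3 of 5 of NK cells (Ncr1, Klrb1c and Klra8), 3 of 5 of neutrophils (S100a8, S100a9 and Csf3r), 1 of 5 of B cells (Ms4a1), 1 of 8 of monocytes and macrophages (Fcgr1) and 0 of 5 of plasma cells. Other markers in these lists had counts, among them Tcf4 at 1.61 TPM, Cox6a2 at 1.94 TPM, Cd68 at 6.08 TPM, Klre1 at 1.16 TPM and Sdc1 at 10.7 TPM on average. The libraries differed in sex-linked RNA, although they share 1 donor label. Xist stood at 964 and 1056 CPM (counts scaled to 1000000 per library) in replicates 1 and 2 and at 11.9 and 3.24 CPM in replicates 3 and 4, and the Y-linked genes Eif2s3y, Ddx3y, Kdm5d and Uty were high in replicates 3 and 4 alone. The spread over the 4 libraries thus holds a difference in sex as well as any technical one.

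Most of the interferon-stimulated genes had transcripts in these cells, at levels that spanned 4 orders of magnitude. Of the 45, 29 had at least 1 TPM in every library, against 23% of all genes in the files and 47.6% of protein-coding genes. Bst2, which encodes the tetherin that holds budding virions on the cell surface, was the highest, and 8 genes averaged over 50 TPM: Bst2, Ifi27l2a, Gbp2, Igtp, Ifi35, Trim25, Ifitm2 and Ifitm3. Below 1 TPM on average were 10: Oasl1, Ifit3, Oas1a, Mx1, Rtp4, Oasl2, Oas2, Rsad2, Ifi44 and Oas1g. Several genes known for strong induction by interferon, among them Rsad2, Mx1 and Ifi44, were thus below 1 TPM in every library. A count of 0 allows up to 3 counts, which in a gene of 1 kilobase is 0.286 TPM for replicate 1 but 1.05 TPM for the shallow replicate 3, so low values in replicate 3 are the least certain. Intervals and floors here cover counting error only.

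**Figure D1:**
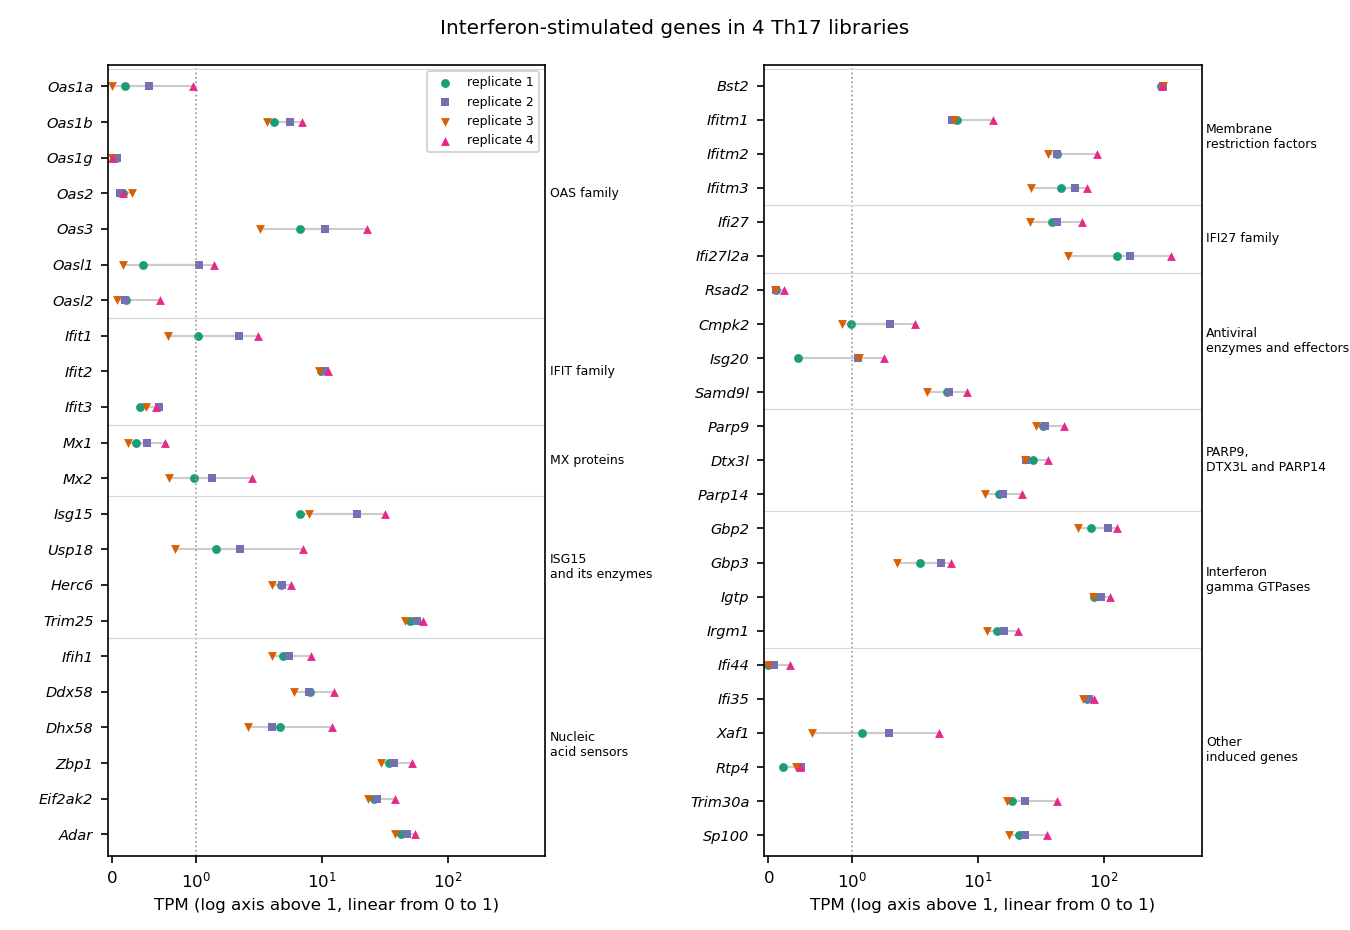
Level of each of the 45 interferon-stimulated genes in TPM (log axis above 1, linear from 0 to 1), by role, with 1 point per library and a line over their range. Bst2 is the highest and nearly the same in all 4 libraries, while Ifi27l2a spans 52.3 to 342.5 TPM, and replicate 4 is the rightmost point for most genes.

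As a group, the genes had their top level in replicate 4 and their bottom level in replicate 3. Their summed level was 1132, 1292, 960.3 and 1769 TPM in replicates 1 to 4, and 847, 993, 663 and 1480 TPM without Bst2. They took 0.0887%, 0.1004%, 0.0765% and 0.135% of all counts. Replicate 4 stood above the other three, which lay closer together, and replicate 2 was second in every one of these sums. Replicate 3, the lowest in these sums, was also the shallowest library, while replicate 1, the second lowest, was the deepest. The part of depth in this order was not tested.

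For the spread between libraries, CPM were scaled with TMM factors, which make most genes equal between libraries, and 36 of the 45 passed a mean of 0.5 CPM. In replicate 4, 35 of the 36 had their highest CPM, against 33.2% of all 12496 genes tested, Bst2 being the exception. Their lowest was in replicate 3 for 32 of the 36, against 34.9% of all genes, the exceptions being Isg15, Isg20, Ifitm1 and Bst2. The full order 4, 2, 1, 3 was shown by 29 of the 36, against 12.1% of all genes. Replicates 1 and 2 also differed in 1 direction, with 32 of the 36 higher in replicate 2, against 50.1% of all genes. Oasl1 and Isg20 passed the filter only through replicate 4, where they were highest. With the filter on the mean of replicates 1 to 3 instead, 33 of 34 were highest in replicate 4 (32.6% of all genes) and 31 of 34 lowest in replicate 3 (34.5%).

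The differences between libraries were larger than that of the median gene tested. At least 2-fold between the highest and the lowest library was seen for 20 of the 36, against 9.46% of all genes, and in 17 of those 20 replicate 4 was the top library and replicate 3 the bottom one, against 3.48%. With the filter on replicates 1 to 3 the 2-fold count was 18 of 34, against 9.08%, and without replicate 4 it was 11, against 5.72%. The median coefficient of variation over the 4 libraries was 31.0%, against 8.10% over all genes tested, and without replicate 4 it was 16.7% against 6.53%. The median log2 ratio of replicate 4 to replicate 3 was 1.00 (range -0.07 to 3.35), against 0.01 over all genes. Replicates 4 and 3 were the top and bottom libraries of most of these genes in these same data. A median above 0 thus follows from taking this pair and is no separate result. The ratios of single genes ran from 0.953-fold for Bst2 to 9.25-fold for Xaf1, with 10.2-fold for Oasl1, which passed only through replicate 4. These medians and counts are over the genes that passed the filter, not over all 45.

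**Figure D2:**
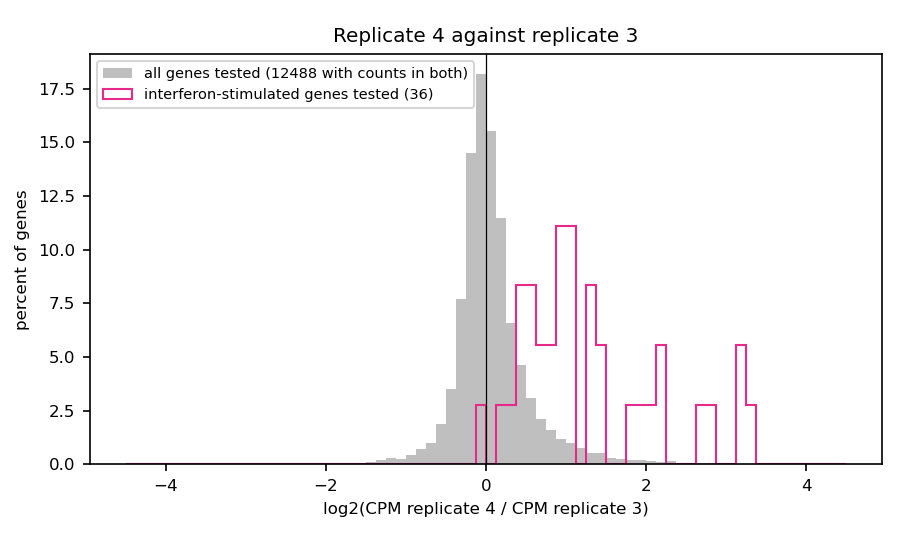
Distribution of the log2 ratio of replicate 4 to replicate 3 in TMM-scaled CPM, as percent of genes, for 12488 tested genes with counts in both (grey) and the 36 interferon-stimulated genes tested (outline). The grey histogram is centred near 0 and 35 of the 36 interferon-stimulated genes lie to the right of 0, with a median of 1.00. The pair is the top and bottom library of most of these genes, so a shift to the right follows from that choice.

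None of the 36 passed the test of spread across genes. In that test edgeR fitted a single mean to the 4 libraries and compared each gene's variation with that of genes of like abundance, with Benjamini-Hochberg adjustment. At an adjusted p under 0.05 it called 0 of the 36 and 5 of the 12496 genes (0.04%), all 5 sex-linked. At an unadjusted p under 0.05 it had 27 of the 36, against 4.87% of all genes. The smallest adjusted p from edgeR among the 36 was 0.212, for Oas3 and Ifi27l2a, which ranked 8th and 12th of all genes. DESeq2's rule for dispersion outliers marked 11 of the 36, against 0.864% of all genes: Oas3, Ifi27l2a, Usp18, Xaf1, Dhx58, Isg15, Trim30a, Gbp2, Ifi27, Parp14 and Sp100. Without replicate 4, edgeR called Oas3, Ifi27l2a and Gbp2, at adjusted p of 0.0257, 0.0287 and 0.0451, among 30 of 12448 genes called (0.241%). Set against counting error alone, the reads of 34 of the 36 differed between libraries (50.9% of genes did), Ifit2 and Bst2 being the others, and without replicate 4 those of 20 of 34 (24.9%). In bulk RNA, fewer cells that express a gene and less RNA of it per cell cannot be told apart.

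**Figure D3:**
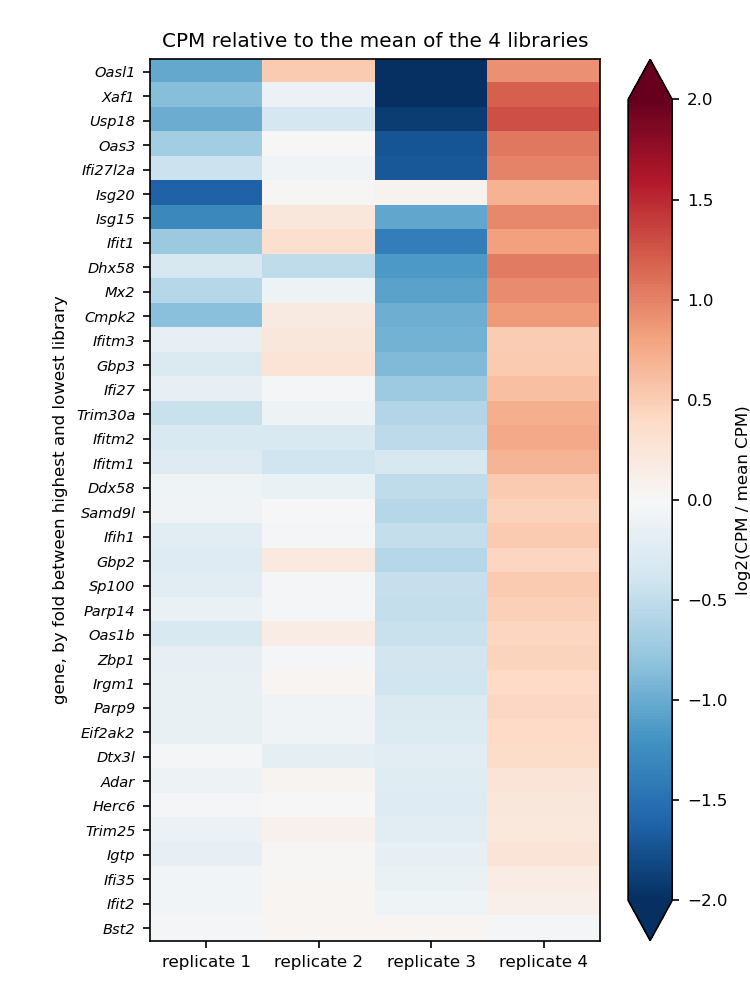
CPM of the 36 tested interferon-stimulated genes in each library relative to their mean over the 4 libraries, on a log2 scale, ordered by the fold between the highest and lowest library. Replicate 4 is red for all but Bst2 and replicate 3 is blue for most, and the rows pale from Oasl1 and Xaf1 at the top to Ifit2 and Bst2 at the bottom.

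The OAS genes differed widely in level and in spread, and 3 of the 7 passed the filter (Oas3, Oas1b and Oasl1). The active enzymes of this family sense double-stranded RNA and make short oligoadenylates that activate the ribonuclease RNase L. Oas3 (ENSMUSG00000032661.9, mm10 chr5:120753098-120777661) had 6.70, 10.7, 3.23 and 22.8 TPM in replicates 1 to 4. Replicate 4 stood well above the rest and was 6.92-fold above replicate 3 (95% counting interval 5.39 to 9.01). Oas1b, of which most laboratory strains carry a truncated allele, had 4.16, 5.61, 3.70 and 6.93 TPM, a ratio of 1.84 (1.15 to 3.08). Its libraries kept the same order as those of Oas3 over a narrower range. Oasl1, which in mice restrains translation of the Irf7 message, had 10, 20, 1 and 32 counts, or 0.37, 1.06, 0.13 and 1.4 TPM. With 1 count in replicate 3, its ratio of 10.2 has an interval from 1.70 to 415. Oasl2 had 11, 7, 1 and 32 counts and stayed below 1 TPM throughout. Oas1a had 3, 6, 0 and 16 counts, with its highest level, 0.97 TPM, in replicate 4, and Oas1g had no more than 1 count in any library. Oas2 had from 3 to 6 counts, with no order to be read from them. Oas1a and Oas1g share 57.6% and 45.7% of their 50-base stretches with other genes, mostly each other, and the counting left out reads with several matches, so their levels are uncertain.

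The neighbours Oas2 and Oas3, which lie 3244 bases apart on the same strand, were far apart in level. On the log2(TPM + 1) scale Oas2 was below Oas3 by a difference of -3.09 ± 1.10 (SD, n = 4). The gap was -1.77 in replicate 3 and -4.40 in replicate 4, so it was widest where Oas3 was highest. Oas1a was below Oas1b by -2.15 ± 0.10 in the same units. The smallest p that an exact sign-flip permutation test over 4 libraries can give rounds to 0.13, and both pairs had that value (adjusted 0.135 over 14 pairs, both tails).

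In the IFIT family, whose proteins bind viral RNA ends, 1 member was nearly level and another was not. Ifit1 (ENSMUSG00000034459.8) had 1.04, 2.18, 0.66 and 3.09 TPM, and its replicate 4 was 4.59-fold above replicate 3 (1.88 to 14.6, from 72 and 5 counts). Ifit2 (ENSMUSG00000045932.12), the highest of the family, had 9.93, 10.6, 9.56 and 11.2 TPM. Its ratio of 1.15 had a counting interval of 0.92 to 1.44, and its counts did not differ between libraries beyond counting error, whereas those of Ifit1 did. Neither passed edgeR's spread test (adjusted p = 0.984 for Ifit1 and 0.990 for Ifit2). The 3 genes lie in a row on chromosome 19, with 64451 bases between Ifit2 and Ifit1. Ifit3 had from 2 to 8 counts per library, but 51.2% of its 50-base stretches also occur elsewhere, mainly in Ifit3b, so its level is uncertain. Ifit1 was above Ifit3 by 0.83 ± 0.51 on the log2(TPM + 1) scale (SD, n = 4), and in 4 of 4 libraries.

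Both genes of the MX family, known for dynamin-like GTPases that trap viral nucleocapsids, were low. Mx2 had 0.98, 1.34, 0.68 and 2.78 TPM, and replicate 4 was 4.01-fold above replicate 3 (1.87 to 10.3). Mx1 had 0.29, 0.42, 0.19 and 0.63 TPM from 2 to 20 counts, in the same order of libraries. Mx1 was below Mx2 by a difference of -0.76 ± 0.32 on the log2(TPM + 1) scale (SD, n = 4), in all 4 libraries. The annotation of GENCODE mouse release 21 types Mx2, like Oas1b, as a polymorphic pseudogene, and the other 43 genes as protein-coding. Such a type, also that of Mx1, does not show that mice of this strain make a working protein, and protein was not measured.

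Isg15 and the enzymes around it split into 2 very unequal genes and 2 with smaller differences between libraries. Isg15 (ENSMUSG00000035692.6, chr4:156199424-156200818), a ubiquitin-like modifier that is attached to proteins during infection, had 6.68, 19.0, 7.89 and 32.0 TPM. Here replicates 1 and 3 were low and replicates 2 and 4 high, and the lowest library was replicate 1, unlike for most of the genes. Usp18 (ENSMUSG00000030107.10), which removes Isg15 and also blocks signalling at the type I receptor, had 1.43, 2.23, 0.755 and 7.03 TPM, 9.14-fold higher in replicate 4 than in replicate 3 (4.11 to 25.3). Only replicate 4 exceeded 3 TPM. Herc6, the ligase that attaches Isg15 in mice, had 4.76, 4.86, 4.00 and 5.71 TPM, a ratio of 1.399. Trim25, a ubiquitin ligase that acts on the sensor RIG-I, had 50.3, 57.1, 45.9 and 63.2 TPM, a ratio of 1.35. Both followed the order of Usp18 with a much smaller range. Isg15 stayed above Usp18 by 2.17 ± 0.42 on the log2(TPM + 1) scale (SD, n = 4).

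All 6 sensors of nucleic acid reached 1 TPM in every library. Replicate 4 was at the top and replicate 3 at the bottom for each, against 20.6% of all genes tested. Each also had an unadjusted p under 0.05 in edgeR's spread test, against 4.87% of all genes. The helicase genes for the cytoplasmic RNA sensors differed in range. Dhx58, whose product LGP2 tunes the other two sensors, had 4.66, 4.05, 2.57 and 12.0 TPM, a ratio of 4.56 (3.01 to 7.21). Ddx58, which encodes RIG-I, had 8.13, 7.87, 6.02 and 12.5 TPM, a ratio of 2.03. Ifih1, which encodes the sensor of long double-stranded RNA, had 4.89, 5.53, 4.00 and 8.16 TPM, a ratio of 2.00. In each of the 3 genes replicate 4 stood apart and the other libraries lay closer together. Ifih1 was below Ddx58 in every library, by -0.53 ± 0.08 on the log2(TPM + 1) scale (SD, n = 4). The remaining sensors were more abundant and more even. Zbp1, which binds left-handed nucleic acid and starts cell death, had 34.3, 37.4, 29.3 and 52.5 TPM. Eif2ak2, the kinase that stops translation on double-stranded RNA, had 25.8, 27.3, 23.4 and 38.0 TPM. Adar, which edits adenosine to inosine in such RNA, had 42.8, 47.4, 38.3 and 55.3 TPM. Their ratios of replicate 4 to replicate 3 were 1.76, 1.59 and 1.42.

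Among the factors that act at membranes, Bst2 was the only 1 of the 36 tested genes that was not highest in replicate 4. Bst2 (ENSMUSG00000046718.8, chr8:71534255-71537456) had 285, 299, 298 and 289 TPM, with a coefficient of variation of 2.96% in CPM, the lowest of the 36. Its promoter held both the ISRE core and the GAS letters. The IFITM proteins, which block the fusion of virions with endosomes, were higher in replicate 4. Ifitm1 had 6.80, 6.18, 6.41 and 13.1 TPM, so that 3 libraries were nearly equal and replicate 4 stood apart. Ifitm2 had 42.8, 42.6, 36.4 and 89.4 TPM, a like pattern at a higher level. Ifitm3, whose promoter is shown above, had 45.8, 59.7, 26.4 and 73.9 TPM, a graded series with replicate 3 clearly lowest and a ratio of 2.74 (2.05 to 3.74). Ifitm3 and Ifitm2 kept no constant order. Ifitm3 was the higher of them in replicates 1 and 2 and the lower in replicates 3 and 4, for a mean difference of -0.04 ± 0.41 on the log2(TPM + 1) scale (SD, n = 4, exact sign-flip permutation p = 1, both tails). Ifitm2 shares 40.9% of its exon length on the same strand with Gm45717, and the counting left out reads shared by several genes, so its level and that comparison are uncertain.

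The IFI27 family, small hydrophobic proteins of intracellular membranes, held the highest of the unequal genes. Ifi27l2a (ENSMUSG00000079017.3, chr12:103442167-103443680) had 127, 162, 52.3 and 342.5 TPM, a ratio of 6.42 (5.04 to 8.30). Each library was clearly separate from the next, and replicate 4 alone held more than replicates 1 and 2 together. It lies 1927 bases from Ifi27, on the other strand. Ifi27 had 38.9, 42.8, 26.1 and 67.0 TPM, a ratio of 2.52 (2.06 to 3.10). The excess of Ifi27l2a over Ifi27 was 0.98 in replicate 3 and 2.34 in replicate 4 on the log2(TPM + 1) scale (mean 1.72 ± 0.57 SD, n = 4), so the neighbours kept their order but not their distance.

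The antiviral enzymes were low except for Samd9l. Samd9l, a cytoplasmic protein that restricts poxviruses and cell growth, had 5.67, 5.90, 3.94 and 8.18 TPM, a ratio of 2.03 (1.55 to 2.71). Cmpk2, a mitochondrial nucleotide kinase, had 0.98, 1.99, 0.88 and 3.17 TPM, a ratio of 3.55 (1.73 to 8.47). Replicates 2 and 4 were thus above 1 TPM and replicates 1 and 3 below it. Rsad2, which encodes the radical enzyme viperin and lies 12751 bases from Cmpk2 in the opposite direction, had 4, 3, 1 and 7 counts. Rsad2 was below Cmpk2 in all 4 libraries, by -1.23 ± 0.49 on the log2(TPM + 1) scale (SD, n = 4). Isg20, an RNA exonuclease, had 0.36, 1.11, 1.13 and 1.78 TPM and was lowest in replicate 1.

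Parp9, Dtx3l and Parp14 were moderately abundant, with ratios of replicate 4 to replicate 3 between 1.51 and 1.94. Parp9 and Dtx3l encode the partners of a ubiquitin ligase complex, and Parp14 a mono-ADP-ribosyltransferase. Parp9 had 32.7, 34.4, 29.2 and 48.7 TPM and Dtx3l had 27.4, 24.3, 23.5 and 36.1 TPM. In both, replicate 4 stood above 3 close libraries. The 2 genes overlap head to head by 682 bases on opposite strands of chromosome 16, and the counting used strand. Parp9 was above Dtx3l by 0.36 ± 0.11 on the log2(TPM + 1) scale (SD, n = 4). Parp14, 54966 bases further, had 14.7, 15.8, 11.4 and 22.6 TPM, a ratio of 1.94 (1.71 to 2.20) against 1.63 for Parp9 and 1.51 for Dtx3l.

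Of the 4 GTPases best known as targets of interferon gamma, Gbp2 and Igtp were among the abundant genes. Gbp2, a guanylate-binding protein that attacks the vacuoles of pathogens, had 79.0, 108, 63.0 and 128 TPM, a ratio of 2.00 (1.81 to 2.21). Its 4 libraries were evenly spread, and it had the third highest mean of the 45. Gbp3, from the same cluster on chromosome 3, had 3.45, 5.07, 2.26 and 6.11 TPM, in the same order. The ratio of replicate 4 to replicate 3 was 2.66 for Gbp3 (1.69 to 4.40). Gbp2 was above Gbp3 by 4.20 ± 0.06 on the log2(TPM + 1) scale (SD, n = 4), where the added 1 weighs more on the lower Gbp3. Igtp and Irgm1 encode immunity-related GTPases that act on the same vacuoles. Igtp had 84.5, 95.2, 82.9 and 113 TPM, a ratio of 1.33, and Irgm1 had 14.2, 16.04, 11.8 and 20.9 TPM, a ratio of 1.74. Igtp also shares 11.8% of its 50-base stretches with other sequence, mainly Irgm2.

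Of the other induced genes that passed the filter, Xaf1 and Trim30a were the most unequal. Xaf1 (ENSMUSG00000040483.15), which binds the apoptosis inhibitor XIAP, had 1.20, 1.97, 0.52 and 4.94 TPM, from 59, 67, 7 and 203 counts, a ratio of 9.25 (4.41 to 23.3). Replicate 4 stood far above the rest and replicate 3 far below. Trim30a (ENSMUSG00000030921.17), which restrains Toll-like receptor signalling, had 18.8, 23.8, 16.9 and 42.8 TPM, a ratio of 2.49 (2.14 to 2.90). Sp100, a scaffold of nuclear bodies, had 21.3, 23.7, 17.6 and 35.4 TPM, a ratio of 1.97. In both Trim30a and Sp100 the first 3 libraries were close and replicate 4 was apart. Ifi35 had 73.1, 76.3, 68.5 and 84.2 TPM, and with a ratio of 1.21 was the third most even of the 36, after Bst2 and Ifit2. Ifi44 had 0, 3, 0 and 14 counts, and Rtp4 had from 2 to 7.

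Over the 14 pairs of relatives and partners, 13 kept their order in TPM in 4 of 4 libraries. Several of these pairs hold a gene with few counts, among them Oas1a, Oas2, Ifit3 and Rsad2. Each of the 13 had the exact permutation p of 0.13 that is the smallest possible here (adjusted 0.135, both tails), so none could pass a threshold of 0.05. The largest distance was that of Gbp2 over Gbp3, and Ifitm3 against Ifitm2 was the pair without a constant sign. Beyond the pairs described with their roles, Oasl2 was below Oasl1 by -0.45 ± 0.34, Igtp above Irgm1 by 2.52 ± 0.14 and Ifitm1 below Ifitm2 by -2.53 ± 0.15 on the log2(TPM + 1) scale (SD, n = 4). In counts, Oasl2 was below Oasl1 in replicate 2 alone. In the other libraries their order in TPM came from length, 6374 bases for Oasl2 and 2608 for Oasl1.

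Genes with and without the ISRE core in the promoter overlapped in how unequal they were. The median ratio of replicate 4 to replicate 3 was 2.22 over the 14 tested genes with the core (0.953 for Bst2 to 6.92 for Oas3) and 1.54 over the 13 without it (1.15 for Ifit2 to 10.2 for Oasl1). Among the 13 are Oasl1 and Isg20, which passed the filter only through replicate 4. The median of 1.54 is the ratio of Isg20 itself. The 9 with no promoter in the table had a median of 2.52. The difference between these medians was not tested. Xaf1, with a ratio of 9.25, had neither motif in the window of 300 bases, while Igtp, with a ratio of 1.33, had both.

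Upstream of these genes, the cells had transcripts of the listed receptors and signal transducers and almost no interferon transcript. Of 20 interferon genes looked for, 18 had 0 counts in all 4 libraries, among them Ifnb1 and every listed Ifna gene. Ifne had 4 counts in replicate 1, and Ifng had 1 count each in replicates 1 and 4. The levels of the ligands therefore gave no comparison between libraries. Other cells of the culture or animal, and protein, were not measured.

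For all 5 receptor chains that passed the filter, replicate 4 was the top library and replicate 3 the bottom one. The same extremes were seen for 20.6% of all genes tested. Ifnar1 had 28.1, 27.7, 21.8 and 32.0 TPM, a ratio of 1.44 (1.28 to 1.62). Ifngr1 had 46.0, 46.3, 33.5 and 56.4 TPM, a ratio of 1.65 (1.45 to 1.89). In both, replicates 1 and 2 were nearly equal, replicate 3 lay below them and replicate 4 above. Ifnar2, Ifngr2 and Il10rb, the chain shared with the lambda interferon receptor, had ratios of 1.12, 1.43 and 1.24. Ifnlr1, the other lambda chain, was below 1 TPM in every library. None of the 5 passed edgeR's spread test at an adjusted p of 0.05, and Ifngr1 was the 1 with an unadjusted p below it (0.0232).

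The signal transducers were not alike. Stat2 had 21.3, 25.3, 19.0 and 35.7 TPM, in the order of most interferon-stimulated genes, with a ratio of 1.84 (1.64 to 2.08, edgeR adjusted p = 0.613). Irf9, another part of the ISRE-binding complex, had 25.5, 28.4, 21.6 and 32.0 TPM, a ratio of 1.45. The kinase genes Jak1, Jak2 and Tyk2 averaged 137, 184 and 43.5 TPM, with ratios of 1.03, 1.06 and 1.24. Over these 5 transducers the median coefficient of variation was 9.52%, against 8.10% over all genes.

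Irf7 was the exception among the interferon regulatory factors. Irf7, which amplifies type I interferon responses and is itself interferon-induced, had 1.34, 2.27, 0.56 and 5.14 TPM, from 53, 62, 6 and 170 counts. Its ratio of 9.04 (4.07 to 24.97) was close to those of Usp18 and Xaf1, with the same order of libraries (edgeR adjusted p = 0.606). Irf5 had 24.4, 27.2, 22.7 and 34.8 TPM, a ratio of 1.501. Irf1, Irf2 and Irf3 averaged 12.2, 15.5 and 77.05 TPM, with ratios of 1.30, 1.18 and 1.02. None of these 3 was highest in replicate 4. Irf8 was highest in replicate 3, at 41.5 TPM against 33.7 TPM in replicate 4, a ratio of 0.796 (0.734 to 0.864).

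The negative regulators were abundant and mostly level. Socs1, which inhibits the Jak kinases, averaged 277 TPM with a ratio of 1.17. Socs3 had 44.9, 45.3, 44.4 and 66.1 TPM, with replicate 4 alone apart. The phosphatase genes Ptpn2, Ptpn6 and Ptpn11 and the SUMO ligase gene Pias1 averaged 97.6, 370.3, 76.2 and 21.2 TPM. Their ratios of replicate 4 to replicate 3 lay between 0.883 and 1.06.

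**Figure D4:**
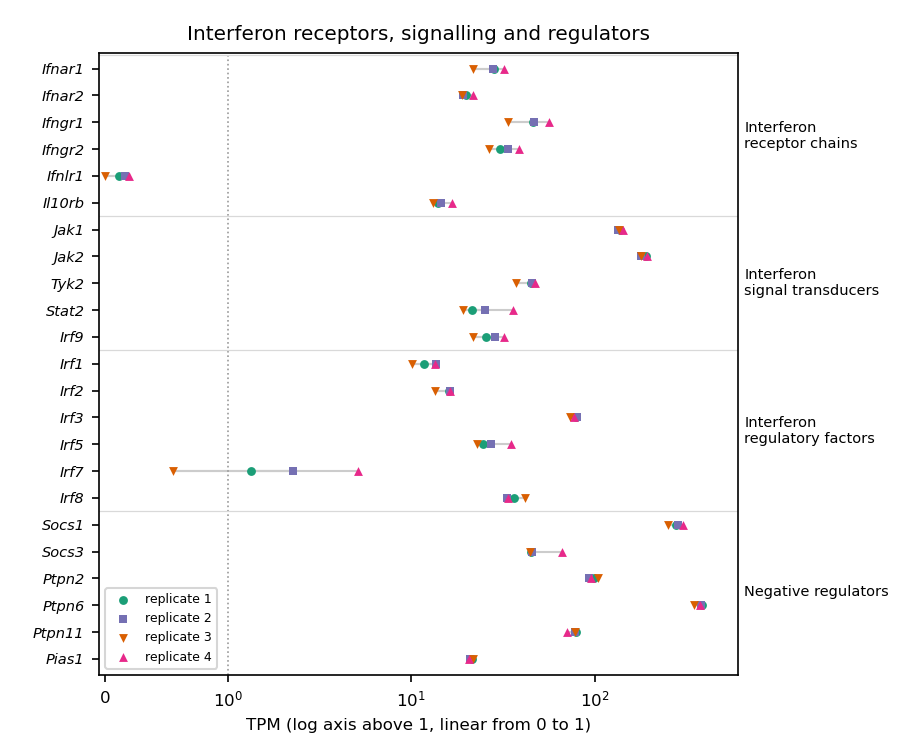
Levels of interferon receptor chains, signal transducers, regulatory factors and negative regulators in TPM (log axis above 1, linear from 0 to 1), with 1 point per library. Irf7 has the widest range, with its lowest point at 0.56 TPM (replicate 3) and its highest at 5.14 TPM (replicate 4), and Irf8 is highest in replicate 3.

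Other genes known as interferon targets were described in 3 further lists. Of 29 other interferon-stimulated genes that passed the filter, 25 were highest in replicate 4 and 19 of them also lowest in replicate 3. Of all genes tested, 33.2% were highest in replicate 4 and 20.6% were also lowest in replicate 3. The median log2 ratio of replicate 4 to replicate 3 was 0.55 over the 29. The 4 most abundant, Ly6a, Slfn2, Ly6e and Pml, averaged 879, 513, 362 and 143 TPM and had ratios of 1.22, 0.944, 1.13 and 1.07. Of 10 other interferon gamma GTPases, 9 were highest in replicate 4, with a median log2 ratio of 0.81. Ifi47, Gbp5, Irgm2 and Gbp7 were the most abundant of these, at 59.0, 13.2, 8.90 and 3.36 TPM, with ratios of 1.25, 2.28, 2.00 and 2.45. The 12 genes of antigen presentation had a median log2 ratio of 0.27, and 11 of 12 were highest in replicate 4. B2m, H2-K1, H2-D1 and Psmb8 led that list, with ratios of 1.10, 1.22, 1.21 and 1.12. In the list of nucleic acid sensing and turnover, 6 of 8 tested genes were highest in replicate 4. Its 4 most abundant, Tmem173, Samhd1, Ticam1 and Tbk1, had ratios of 0.844, 1.30, 1.27 and 1.07. No gene of these lists passed edgeR's spread test at an adjusted p of 0.05, and 10 of the 29, 4 of the 10, 2 of the 12 and 1 of the 8 had an unadjusted p below it, against 4.87% of all genes.

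Other features of the libraries did not all follow the order of the interferon-stimulated genes. The 7 plasmacytoid dendritic cell markers summed to between 4.60 and 5.32 TPM and the 7 markers of other dendritic cells to between 0.284 and 0.418 TPM, neither highest in replicate 4. The 8 monocyte and macrophage markers summed to 7.84, 11, 5.65 and 9.56 TPM in replicates 1 to 4, most of it Cd68 and Cd14, with replicate 2 at the top and replicate 3 at the bottom. Lyz2 had 3 counts, all in replicate 4, and Fcgr1 had none. The 5 B cell markers summed to at most 0.686 TPM and the 5 neutrophil markers to at most 0.433 TPM, neither highest in replicate 4. The 5 plasma cell markers summed to between 10.003 and 12.01 TPM, nearly all Sdc1, and were highest in replicate 4. The 5 NK cell markers summed to between 0.955 and 1.91 TPM, nearly all Klre1, and were highest in replicate 3. The part of these markers in the pattern was not tested. The sex-linked split set replicates 1 and 2 against 3 and 4. Most of the interferon-stimulated genes were lowest in replicate 3 and highest in replicate 4. The part of sex in their order was not tested. The 7 Th17 and CD4 T cell markers did not move together, with a median log2 ratio of replicate 4 to replicate 3 of 0.13. Il17a and Il17f were lower in replicate 4 than in replicate 3, with ratios of 0.795 and 0.839 in CPM. Rora, Il23r, Cd3e, Cd4 and Ccr6 were higher there, with ratios of 1.32, 1.14, 1.12, 1.09 and 1.07. None of the 7 had an unadjusted p under 0.05 in edgeR's spread test.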

How the data were processed

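RNA sequencing of 4 Th17 libraries was analysed from the counts of read pairs per gene that the authors deposited, not normalised. Per the file headers, the counter was featureCounts 1.4.6-p4, run over GENCODE mouse release 13 exons with both mates aligned and the reverse-strand setting (option 2), without reads that map to several places or overlap several genes. STAR appears in the name of the counter's input (version not given in the sources used here). The labels give the build as mm10. Symbols came from GENCODE mouse release 21 (50376 of 50600 identifiers matched). Samples were grouped by the labels' cell type, and no column of per-sample values was left unused.

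TPM were computed from counts and exon lengths. The spread test was edgeR 4.0.16 (TMM, genes with a mean of at least 0.5 CPM, intercept alone, quasi-dispersion over its abundance trend against the F distribution, upper tail). A filter on the mean was used because one that needs counts in every library removes genes low in some. Counting error was tested by chi-square over 4 libraries (smallest expected count 5), and pairs were tested by exact sign flips. The p-values of these tests and of the spread test were adjusted by Benjamini-Hochberg. Ratios have exact 95% binomial intervals. The intervals are not adjusted for the number of genes or for the choice of the libraries compared. DESeq2 1.42.0, R 4.3.3, Python 3.11.15 and SciPy 1.17.1 were used. The spread test was tested on simulated data. Alternatives were other scalings, filters and thresholds, pseudocounts, CPM in place of TPM, and each library left out. A filter on the mean of replicates 1 to 3 was added after seeing the data. Shared sequence was counted as 50-base stretches of the release 21 transcripts.

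The text names all 45 genes, the receptor, transducer, regulatory and negative regulator genes with at least 1 TPM on average, and, of the other lists, the 4 highest and any past the spread test. Of 169 other listed genes, 167 were found by symbol. Some genes are not reported here. Promoters were printed for the 6 genes with the largest fold between libraries among tested genes with an ISRE core. The genes, lists and tests were chosen with earlier results of these data known.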

Additional observations from a re-analysis of the deposited data

Results flagged for a closer look

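In 5 of 95 values tested, which were levels of single genes or sums over genes, 1 library lay far from the rest. Its gap to the nearest library, over the whole range of the 4, was above Dixon's 95% critical value. Chance flags about 1 in 20 independent groups, and 5 of 95 is near that rate. These values come from the same libraries and the sums hold the single genes, so how many flags chance gives here is not known. Replicate 4 was far above the rest for Ifitm1, with a gap of 0.912 of the range, for Ifitm2, with 0.880, and for Rsad2, with 0.859. Ifitm1 had 13.1 TPM there against 6.18 to 6.80 TPM elsewhere, and Ifitm2 89.4 TPM against 36.4 to 42.8 TPM. The values of Rsad2 rest on 7 counts in replicate 4 and on 4 or fewer elsewhere. Socs3, which encodes an inhibitor of Jak kinases, was at 66.1 TPM in replicate 4 and between 44.4 and 45.3 TPM in the others, a gap of 0.959. Irf2 was the reverse case, at 13.5 TPM in replicate 3 and between 16.1 and 16.3 TPM in the others, a gap of 0.956.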

How the results depend on the processing

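Of 486 values under other settings, 467 kept their direction and their side of the threshold, or stayed within 1.5 times the main count. Many of these values had little or no room to change. A pair with the same sign in every library keeps that sign whichever library is left out. Other scalings gave nearly the same library sizes. The tally of 467 is thus no measure of how firm the results are. The number of interferon-stimulated genes past edgeR's spread test was 0 in the main setting, 2 with no filter (Oas3 and Ifi27l2a, adjusted p of 0.00767 and 0.0101) and 11 as DESeq2 dispersion outliers, and ranged from 0 to 3 when each library was left out. Over all genes it was 5 in the main setting, 20 with no filter, 1 with edgeR's default filter on counts, 108 with DESeq2, and 3 to 30 when each library was left out. Leaving out each library gave 20 to 36 of these genes beyond counting error (24.9% to 47.1% of all genes), 11 to 20 at least 2-fold apart (4.39% to 8.02%), and a median coefficient of variation of 16.7% to 37.4%. For these genes the lowest of each was without replicate 4. The difference of Ifitm3 from Ifitm2 turned to 0.013 in CPM without length, and ranged from -0.21 to 0.10 with a library left out. Leaving out another library cannot lower the counts of genes highest in replicate 4 or lowest in replicate 3, so those counts have no such check. The cause of these shifts was not tested. Replicate 3, with 9382661 counts, limits every ratio to it, most of all for genes with few counts there, such as Oasl1, Ifit1, Usp18 and Xaf1. No paired analysis was possible because there is 1 group.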
